A study of Mus musculus with 2 samples.

Results

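The collagen genes were taken as the 43 gene symbols that the table of FPKM (fragments mapped to a gene, divided by its exon length and by the mapped fragments of the library) lists as Col, a type number, the letter a and a chain number, of 33224 gene symbols in all. Of these, 11 encode fibrillar collagen chains, 6 encode the type IV chains of basement membranes and 26 encode other types. RNA was sequenced from the liver of male C57BL/6 mice, 1 library of wild type (WT) and 1 library of PPARbeta-null (KO) mice, which lack the nuclear receptor PPARβ. The sample labels give an age of 4 months for both, and the time of 48 hr after partial hepatectomy (PH) comes from the study's text. Both libraries were thus from regenerating liver, and no liver without surgery was part of these data. Whether a library held RNA of a single mouse or a pool is not stated in the sources used here. With 1 library per genotype no difference has a replicate check, and a fold change compares these libraries only.

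Collagens are triple-helical proteins built from 3 chains, which may be of the same or of different genes. Fibrillar collagens such as types I, III and V are made as procollagens, trimmed outside the cell and cross-linked into fibrils, whereas type IV collagen forms the network of basement membranes. Fibril-associated collagens sit on the surface of fibrils, type VI forms beaded filaments around cells, and the multiplexins (types XV and XVIII) lie in basement membrane zones. In liver, hepatic stellate cells and portal fibroblasts are the known main source of fibrillar collagen after injury, sinusoidal endothelial cells contribute type IV collagen, and hepatocytes are known to make type XVIII collagen, the precursor of endostatin.

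Of the 43 collagen genes, 23 reached a mean of 0.1 FPKM over both libraries and are described one by one, and 20 did not reach it. All 23 also had at least 0.1 FPKM in each library separately, so none of them passed through 1 library alone. The gene nearest to the limit from above was Col7a1 (mean FPKM 0.191) and the nearest from below was Col9a3 (mean FPKM 0.0756). Each of the 43 symbols had a single row in the table, and no collagen row was marked as having too many reads to estimate. On the log2 scale with 0.1 FPKM added, which understates the change of low genes, 18 of the 23 were lower in KO liver and 5 were higher (17 and 6 with the libraries set to equal upper quartiles of FPKM, Col12a1 being the gene that changed side). Of all genes 74.8% were lower and 25.2% were higher as deposited, so the share of lower collagens was near that of all genes in these values. With equal upper quartiles the median log2 KO/WT of all genes was -0.0088, so the nearness holds for the deposited values only. As deposited, the median log2 KO/WT of the 23 collagens was -0.86, against -0.25 for the 15727 genes of any kind that reached 0.1 FPKM on average. The median gene was thus lower in the KO library, while a KO factor of only 1.02 made the summed FPKM of the libraries equal. Of the 23 collagens, 17 lay below the median of all genes. In a bulk liver sample, fewer cells of a type and less collagen RNA per cell cannot be told apart.

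Depth was read from single-exon genes, whose lowest values piled up at 1 fragment. A single fragment on 1 kb of exon corresponded to 0.0188 FPKM (WT) and 0.0174 FPKM (KO), and the 23 genes had between 49.4 and 46830 estimated fragments in a library. The 95% intervals given below are exact binomial (Clopper-Pearson) intervals of these estimated fragments. They cover counting error only, not the spread between mice, and they are approximate, since the labels name paired end and the study's methods single end reads. Ppard, which encodes PPARβ, had 2.67 FPKM in WT and 2.42 FPKM in KO liver. Its KO/WT ratio of 0.906 had an interval of 0.794 to 1.04, so the level of the whole gene did not separate the libraries, and it is no check of the labels, since the exons that the null allele lacks are not given in the sources used here. The libraries also came from different lanes by the names in the table, so lane and genotype cannot be told apart.

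Counted on the scale with 0.1 FPKM added, 8 of the 23 collagens were over 2-fold lower in KO liver, where 9.94% of all genes were, and 1 was over 2-fold higher, where 2.08% of all genes were. The 8 make up 34.8% of the 23. With 0.01 FPKM added in its place 10 were over 2-fold lower, with Col5a2 and Col4a5 as the others, and with 1 FPKM added 4 were. The share of all genes was not counted at these settings, so these counts have no background beside them. At 1.5-fold, 14 were lower (60.9% of the 23, against 22.9% of all genes) and the same single gene was higher (against 4.93% of all genes). The median gene was lower in the KO library, so the counts were also taken with equal upper quartiles. Then 5 collagens were over 2-fold lower and 13 were over 1.5-fold lower, against 7.15% and 14.8% of all genes, and 1 was higher at either fold, against 3.36% and 8.85% of all genes.

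**Figure D1:**
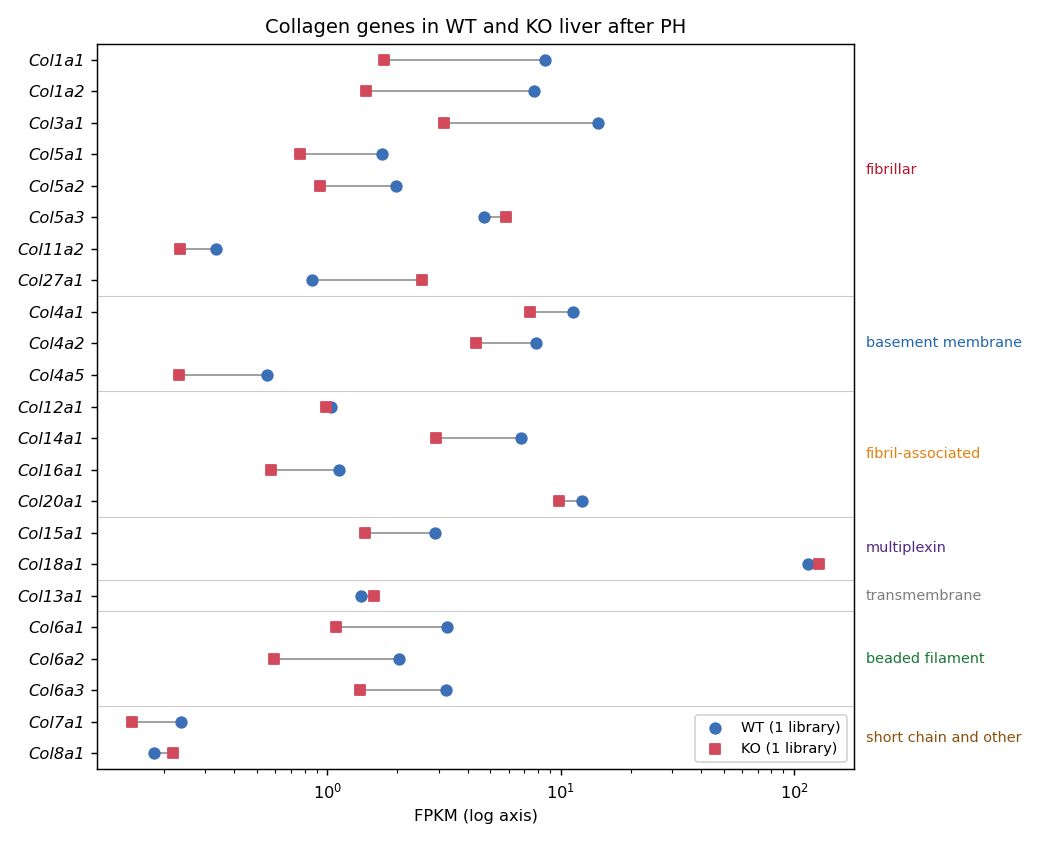
FPKM on a log axis of the 23 collagen genes whose mean reached 0.1, with a circle for the WT library and a square for the KO library, grouped by class. The squares lie left of the circles for 18 genes, by the widest margin for Col1a1, Col1a2 and Col3a1, and to the right by the widest margin for Col27a1, while Col18a1 stands far above the rest in both libraries.

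The fibrillar collagens held both ends of the range. Of the 8 fibrillar genes that reached 0.1 FPKM, 6 were lower in KO liver and 2 were higher. As deposited this was near the 74.8% lower and 25.2% higher of all genes. With equal upper quartiles 6 were again lower and 2 higher, while the median log2 KO/WT of all genes was -0.0088. The log2 KO/WT of these 8 lay between -2.31 and 1.46, with a median of -1.03. On the same scale 4 were over 2-fold lower and 1 was over 2-fold higher, beside 9.94% lower and 2.08% higher of all genes. Col5a2 was just short of 2-fold lower (log2 KO/WT -0.999). The sum of all 11 fibrillar genes was 40.4 FPKM in WT and 16.7 FPKM in KO liver, a KO/WT ratio of 0.413.

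Col1a1 and Col1a2 encode the chains of type I collagen, the most abundant collagen of scar and interstitial matrix, and Col3a1 encodes type III collagen, which co-assembles with type I in reticular fibres. Col1a1 had 8.56 FPKM in WT and 1.75 FPKM in KO liver. Col1a2 had 7.68 FPKM in WT and 1.47 FPKM in KO liver. Col3a1 had 14.5 FPKM in WT and 3.18 FPKM in KO liver. These 3 genes were lower in KO liver by similar factors, with WT/KO ratios of 4.88 (interval 4.47 to 5.35) for Col1a1, 5.23 (4.72 to 5.79) for Col1a2 and 4.57 (4.27 to 4.90) for Col3a1. Of all 15727 genes, 2.26% had a lower log2 KO/WT than Col1a1, 2.10% a lower one than Col1a2 and 2.42% a lower one than Col3a1. The ratio of one chain to another within a library does not depend on how the libraries are scaled. The FPKM of Col1a1 was 1.11 times that of Col1a2 in WT and 1.19 times in KO liver, and the FPKM of Col3a1 was 1.70 times that of Col1a1 in WT and 1.81 times in KO liver. The balance of the type I and type III transcripts was thus close in the libraries while their level differed.

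On NCBIM37, Col1a1 lies at chr11:94797538-94814356, Col1a2 at chr6:4454814-4491543 and Col3a1 at chr1:45368383-45406551, so genes on 3 chromosomes had nearly the same ratio. Exons of Col1a1 overlap those of Gm17329, annotated on the opposite strand, and the table gives nothing by strand, so reads of these genes cannot be told apart in their overlap. The row of Col1a2 is marked FAIL in the authors' table, unlike those of the other 22 genes. Its values are given as listed.

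Col5a1 and Col5a2, chains of type V collagen, which sits inside type I fibrils and limits their width, were also lower. Col5a1 had 1.71 FPKM in WT and 0.764 FPKM in KO liver, a WT/KO ratio of 2.24 (interval 1.98 to 2.54). Col5a2 had 1.97 FPKM in WT and 0.934 FPKM in KO liver, a ratio of 2.11 (1.85 to 2.40). Both ratios were below those of the type I and type III genes, with intervals that did not overlap theirs. Col5a2 and Col3a1 are neighbours on chromosome 1, transcribed toward each other with 24.6 kb between them, and their log2 KO/WT values were -1.0 (Col5a2) and -2.16 (Col3a1). Exons of Col5a1 overlap those of 2810430I11Rik and Gm13372 on the opposite strand. Col11a2, a chain of the cartilage fibril collagen type XI, had the lowest FPKM of the fibrillar genes that reached 0.1 FPKM. It had 0.333 FPKM in WT and 0.235 FPKM in KO liver, a WT/KO ratio of 1.42 (1.05 to 1.90). With equal upper quartiles its KO/WT ratio was 0.843.

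The remaining fibrillar genes ran the other way. Col5a3, the third chain gene of type V collagen, had 4.69 FPKM in WT and 5.82 FPKM in KO liver, a KO/WT ratio of 1.24 (interval 1.16 to 1.33). Col27a1, which encodes a fibrillar collagen known from cartilage, had 0.865 FPKM in WT and 2.55 FPKM in KO liver, a KO/WT ratio of 2.95 (2.61 to 3.33). Of all genes, 0.897% had a higher log2 KO/WT than Col27a1, and it was the only collagen of the 23 past 1.5-fold in that direction. The genes of type V collagen thus parted, since Col5a3 had 2.74 times the FPKM of Col5a1 in WT and 7.62 times in KO liver. The order of the fibrillar genes changed as well. In WT liver Col3a1, Col1a1 and Col1a2 were the highest and together made 76.1% of the fibrillar FPKM, and in KO liver they made 38.3%. In KO liver Col5a3 was the highest, followed by Col3a1 and then Col27a1, whose FPKM was 0.101 times that of Col1a1 in WT and 1.46 times in KO liver. The locus of Col27a1, chr4:62875038-62996866, is 841 bases longer than the annotated gene. A locus wider than the gene was listed for 13 collagen genes, among them Col5a1 (by 3500 bases), Col15a1 (10674 bases) and Col16a1 (23584 bases).

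The bases before the start are shown for genes at both ends of the range, so that genes lower by like factors can be set beside the one that was higher. Of the 43 genes, 35 had an entry in the RefSeq promoter table, Col1a1 not among them. The windows are the 250 bases upstream of the start on the strand of the gene, on GRCm38.p6, at chr6:4505368-4505617 (plus strand) for Col1a2, chr1:45311288-45311537 (plus strand) for Col3a1 and chr4:63215162-63215411 (plus strand) for Col27a1. Capitals mark matches to TATAAA (the core of a TATA box), to CCAAT (named after these letters) and to GGGCGG (a GC box), each searched on both strands, and the matches did not overlap.
Col1a2: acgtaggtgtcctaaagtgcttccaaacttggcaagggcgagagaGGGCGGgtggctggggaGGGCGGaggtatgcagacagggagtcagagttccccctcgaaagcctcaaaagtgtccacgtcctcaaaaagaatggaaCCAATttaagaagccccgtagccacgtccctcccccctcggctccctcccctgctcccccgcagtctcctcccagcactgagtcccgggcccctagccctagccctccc
Col3a1: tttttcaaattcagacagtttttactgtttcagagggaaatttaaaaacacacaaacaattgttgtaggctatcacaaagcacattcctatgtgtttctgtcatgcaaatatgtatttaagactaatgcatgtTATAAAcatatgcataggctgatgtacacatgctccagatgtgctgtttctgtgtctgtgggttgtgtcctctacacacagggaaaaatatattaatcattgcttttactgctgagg
Col27a1: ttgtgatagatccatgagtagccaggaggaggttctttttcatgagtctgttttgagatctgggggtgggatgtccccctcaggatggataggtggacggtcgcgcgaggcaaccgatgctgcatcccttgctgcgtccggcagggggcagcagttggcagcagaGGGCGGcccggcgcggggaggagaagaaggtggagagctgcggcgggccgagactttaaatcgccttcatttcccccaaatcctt

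Col1a2 held CCAAT beginning 109 bases before the start and GGGCGG beginning 205 and 188 bases before it. Col3a1 held TATAAA beginning 117 bases before the start, and its window had a GC content of 35.2%, against 62.0% for Col1a2 and 59.6% for Col27a1. Col27a1 held GGGCGG beginning 85 bases before the start. Col1a2 and Col3a1, whose ratios were alike, thus shared none of these motifs in the windows. Over the 38 windows of collagen genes (some genes have several starts), 13 (34.2%) held CCAAT, 5 (13.2%) TATAAA and 22 (57.9%) GGGCGG. Of all 32851 windows, 33.8% held CCAAT, 12.4% TATAAA and 32.7% GGGCGG. The direct repeat of AGGTCA with 1 base between its copies (DR1), the general form of a PPAR and RXR binding site, was in 0 of the 38 collagen windows and in 0.0335% of all windows, which says only that these letters are not in these 250 bases.

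The basement membrane collagens were lower in KO liver, by smaller factors than the type I and type III genes. Of the 6 genes, Col4a1, Col4a2 and Col4a5 reached 0.1 FPKM. On the scale with 0.1 FPKM added all 3 were over 1.5-fold lower, where 22.9% of all genes were, and under 2-fold lower. Col4a1 and Col4a2 encode the chains of the type IV network found in most basement membranes. Col4a1 had 11.3 FPKM in WT and 7.41 FPKM in KO liver, a WT/KO ratio of 1.52 (interval 1.45 to 1.60). Col4a2 had 7.86 FPKM in WT and 4.33 FPKM in KO liver, a ratio of 1.81 (1.70 to 1.93). Col4a5, on chromosome X and known from the kidney glomerulus, had 0.553 FPKM in WT and 0.233 FPKM in KO liver, a ratio of 2.38 (1.85 to 3.12). The FPKM of Col4a1 was 1.44 times that of Col4a2 in WT and 1.71 times in KO liver. Col4a1 and Col4a2 are transcribed away from each other and overlap by 22 bases at their starts, and the table gives both the same locus, chr8:11187755-11449287, so reads in the overlap cannot be told apart. The type IV genes on chromosome 8 were lower by less than the type I genes, and the FPKM of Col4a1 was 1.32 times that of Col1a1 in WT and 4.23 times in KO liver. The sum of the 6 type IV genes was 19.9 FPKM in WT and 12.0 FPKM in KO liver, a KO/WT ratio of 0.605.

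Among the 26 collagens of other types, 12 reached 0.1 FPKM. Their median log2 KO/WT was -0.66, with 9 lower and 3 higher in KO liver, as deposited near the 74.8% lower and 25.2% higher of all genes. With equal upper quartiles 8 were lower and 4 higher, while the median log2 KO/WT of all genes was -0.0088. Over 2-fold lower were 4 of the 12, beside 9.94% of all genes. All 3 expressed chains of type VI collagen, which links cells to the surrounding fibrils, were among these 4. Col6a1 had 3.27 FPKM in WT and 1.09 FPKM in KO liver, a WT/KO ratio of 3.00 (interval 2.60 to 3.47). Col6a2 had 2.03 FPKM in WT and 0.590 FPKM in KO liver, a ratio of 3.43 (2.87 to 4.10). Col6a3 had 3.24 FPKM in WT and 1.38 FPKM in KO liver, a ratio of 2.34 (2.14 to 2.56). Type VI chains assemble together, and the FPKM of Col6a3 was 0.990 times that of Col6a1 in WT and 1.27 times in KO liver. The other chain genes of this type, Col6a4, Col6a5 and Col6a6, which lie side by side on chromosome 9, did not reach 0.1 FPKM.

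Among the fibril-associated collagens, Col14a1, which binds the surface of type I fibrils, had 6.78 FPKM in WT and 2.93 FPKM in KO liver, a WT/KO ratio of 2.31 (interval 2.15 to 2.49). Col16a1, which takes part in small fibrillar aggregates, had 1.12 FPKM in WT and 0.573 FPKM in KO liver, a ratio of 1.96 (1.62 to 2.38). Col12a1, a relative of Col14a1 found on fibrils of dense tissue, had 1.04 FPKM in WT and 0.992 FPKM in KO liver, a ratio of 1.05 (0.938 to 1.17), and with equal upper quartiles its KO/WT ratio was 1.14. The intervals of Col12a1 and Col14a1 did not overlap, and that of Col12a1 held 1. Col20a1 was listed at 12.4 FPKM in WT and 9.82 FPKM in KO liver, but its row is a joint locus with Arfgap1 and 9230112E08Rik, so the value cannot be assigned to Col20a1.

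The multiplexins parted from each other. Col15a1, a collagen of the basement membrane zone of vessels, had 2.88 FPKM in WT and 1.45 FPKM in KO liver, a WT/KO ratio of 1.98 (interval 1.76 to 2.24), and its exons overlap those of Gm12426 on the opposite strand. Col18a1 had 115 FPKM in WT and 129 FPKM in KO liver, a KO/WT ratio of 1.12 (1.11 to 1.14). Col18a1 was by far the highest collagen, with 39.8 times the FPKM of Col15a1 in WT and 88.4 times in KO liver, and 13.4 times the FPKM of Col1a1 in WT and 73.4 times in KO liver. It made 54.6% of the summed collagen FPKM in WT and 72.1% in KO liver. Col18a1 lies on chromosome 10 at 326 kb from Col6a1, on the same strand, and their log2 KO/WT values were 0.16 and -1.50. The locus given for Col18a1, chr10:76494986-76629293, is 19937 bases longer than the annotated gene.

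The rest of the expressed collagens were Col13a1 and, at low values, Col8a1 and Col7a1. Col13a1, a transmembrane collagen of cell adhesion sites, had 1.39 FPKM in WT and 1.58 FPKM in KO liver, a KO/WT ratio of 1.14 (interval 0.953 to 1.36). Col8a1, a short chain collagen of vessel walls, had 0.181 FPKM in WT and 0.218 FPKM in KO liver, a ratio of 1.20 (0.822 to 1.79). Col7a1, the collagen of anchoring fibrils, had 0.236 FPKM in WT and 0.145 FPKM in KO liver, a WT/KO ratio of 1.63 (1.21 to 2.20), on a row shared with Mir711. The intervals of Col13a1 and Col8a1 held 1 for the values as deposited, and with equal upper quartiles their KO/WT ratios were 1.36 and 1.44.

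**Figure D2:**
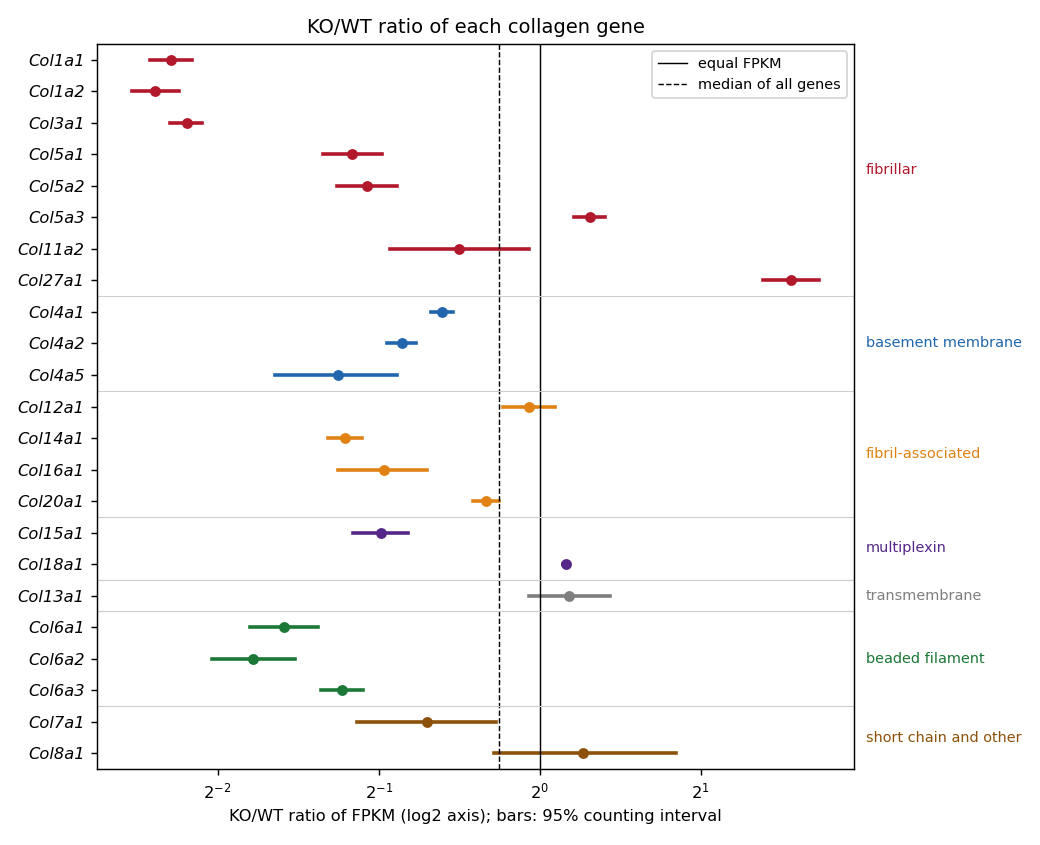
KO/WT ratio of FPKM of the 23 collagen genes on a log2 axis, with points for the ratio, bars for the 95% counting interval, a solid line at equal FPKM and a dashed line at the median of all genes. Col1a1, Col1a2 and Col3a1 lie near 0.205, 0.191 and 0.219, the type VI and type IV genes lie between these and the dashed line, and Col27a1 lies alone at 2.95.

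Because Col18a1 outweighed the rest, sums over all collagens hid these differences. The 43 genes summed to 209.9 FPKM in WT and 178.4 FPKM in KO liver, a KO/WT ratio of 0.850, which became 1.01 with equal upper quartiles. Without Col18a1 the sums were 95.2 and 49.8 FPKM, a ratio of 0.523, and without the joint locus of Col20a1 as well they were 82.9 and 40.0 FPKM, a ratio of 0.483. The 26 genes of other types summed to 149.6 FPKM in either library, whereas without Col18a1 and the joint locus they summed to 22.5 FPKM in WT and 11.3 FPKM in KO liver.

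**Figure D3:**
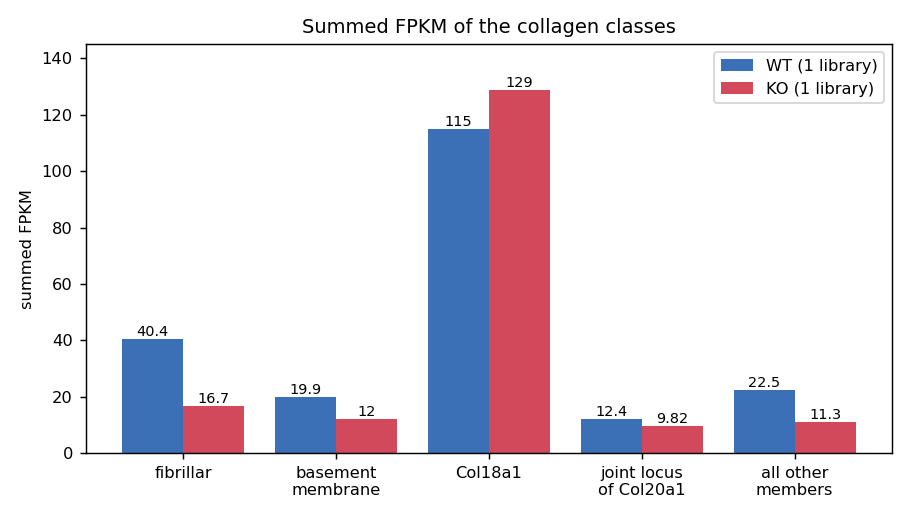
Summed FPKM of the collagen classes in the WT and KO libraries, with bars from 0 and Col18a1 and the joint locus of Col20a1 drawn apart from the other members. The fibrillar sum was 40.4 in WT and 16.7 in KO liver and the basement membrane sum 19.9 and 12.0, while Col18a1 was 115 and 129.

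The 20 collagens under 0.1 FPKM were listed at 0.108 FPKM or less in each library. Col2a1, Col9a1 and Col19a1 were listed at 0 in both libraries, and Col9a2, Col10a1, Col11a1 and Col28a1 in 1 of them. Col2a1 and the type IX genes are best known from cartilage and Col10a1 from growth plates. The others were Col4a3, Col4a4, Col4a6, Col6a4, Col6a5, Col6a6, Col8a2, Col9a3, Col17a1, Col22a1, Col23a1, Col24a1 and Col25a1. Of the 20 genes, 12 had a lower value in KO liver, 5 a higher value and 3 were at 0 in both. The share of all genes under 0.1 FPKM was not counted, so these directions have no background beside them.

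The enzymes and chaperones that modify and fold collagen chains stayed close to the bulk of genes. Of 20 listed genes, 18 reached 0.1 FPKM, their median was -0.37 on the log2 KO/WT scale, and 2 were over 1.5-fold lower and 1 over 1.5-fold higher, beside 22.9% lower and 4.93% higher of all genes. P4hb, the protein disulfide isomerase subunit of prolyl hydroxylase, had 516 FPKM in WT and 688 FPKM in KO liver, and Ppib, a prolyl isomerase of the endoplasmic reticulum, had 158 and 181 FPKM. Both also serve other secreted proteins, and both were higher in KO liver. Glt25d1, a collagen galactosyltransferase, had 22.9 FPKM in WT and 15.6 FPKM in KO liver, and Crtap, a subunit of the prolyl hydroxylation complex, had 5.08 and 3.12 FPKM, the lowest ratio of the list among genes that averaged 1 FPKM or more. The listed gene Mia3 was not found by that symbol, and P4ha3 stood at 0 in either library.

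The genes that trim procollagen and cross-link fibrils were mostly lower. Of 14 listed genes, 11 reached 0.1 FPKM, and their median was -0.89 in log2 KO/WT. At 1.5-fold 7 were lower and 1 was higher, beside 22.9% lower and 4.93% higher of all genes. Tgm2, a transglutaminase, had 93.0 FPKM in WT and 45.8 FPKM in KO liver. Pcolce, which speeds removal of the C-propeptide, had 7.11 FPKM in WT and 3.79 FPKM in KO liver on a row shared with Fbxo24, whereas Bmp1, the protease that removes it, had 26.0 and 29.3 FPKM. Of the lysyl oxidases, which start cross-linking, Lox, Loxl1, Loxl2 and Loxl3 were lower in KO liver and Loxl4 was higher. Lox, named after its values were seen, had 0.851 FPKM in WT and 0.169 FPKM in KO liver, a WT/KO ratio of 5.03 (interval 3.65 to 7.25). Loxl2 had 2.21 FPKM in WT and 0.885 FPKM in KO liver, a WT/KO ratio of 2.49 (2.15 to 2.89). Loxl4 had 0.763 FPKM in WT and 3.21 FPKM in KO liver, a KO/WT ratio of 4.21 (3.53 to 5.06), higher than that of any of the 23 collagens.

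The metalloproteinase inhibitors were lower as well. Timp1, which inhibits matrix metalloproteinases and is known to rise in injured liver, had 4.48 FPKM in WT and 0.932 FPKM in KO liver, a WT/KO ratio of 4.80 (interval 3.52 to 6.79). Timp3, which binds to the matrix, had 4.21 and 1.52 FPKM, a ratio of 2.77 (2.47 to 3.11), and Timp2 had 3.56 and 2.38 FPKM, a KO/WT ratio of 0.668. Over these 3 genes the median was -1.41 in log2 KO/WT, and the 4th, Timp4, did not reach 0.1 FPKM. The genes of collagen degradation were nearer to the bulk, with a median of -0.33 over 11 of 13 genes, 4 of them over 1.5-fold lower and 0 higher, beside 22.9% lower and 4.93% higher of all genes. Among them Mmp19 had 24.2 and 23.1 FPKM, Pepd, which cleaves proline dipeptides, had 24.0 and 22.6 FPKM, Mmp14, a membrane-bound collagenase, had 10.1 and 12.0 FPKM, and Mmp15 had 9.16 FPKM in WT and 4.59 FPKM in KO liver.

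Collagen receptors had a median of -0.51 in log2 KO/WT over 6 of 9 genes. In KO liver 5 were lower and 1 higher, beside 74.8% lower and 25.2% higher of all genes, and with equal upper quartiles 4 were lower and 2 higher. As deposited 3 were over 1.5-fold lower and 0 over 1.5-fold higher, beside 22.9% lower and 4.93% higher of all genes. Itgb1, the β chain of collagen-binding integrins, had 55.2 FPKM in WT and 44.3 FPKM in KO liver, and Itga1, an α chain, had 3.39 and 3.12 FPKM. With only genes averaging 1 FPKM or more, the medians of the degradation and receptor lists were -0.078 and -0.12, above the -0.24 of all such genes. Few genes remained in either list. The degradation median rested on Mmp14, Mmp15, Mmp19 and Pepd alone, and the receptor median was the value of Itga1. Proteins that bind fibrils had a median of -0.59 over 13 of 15 genes, with 7 over 1.5-fold lower and 1 higher, beside 22.9% lower and 4.93% higher of all genes. Dcn, a small proteoglycan that coats fibrils, had 62.6 FPKM in WT and 46.9 FPKM in KO liver, Sparc had 38.8 and 26.5 FPKM, and Postn, a matricellular protein, had 2.87 and 1.17 FPKM. The higher one among the fibril-binding proteins was Fn1, fibronectin, a plasma protein of hepatocytes as well as a matrix protein, with 195 FPKM in WT and 367 FPKM in KO liver.

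The partners of type IV collagen in basement membranes were mostly lower as well. All 17 listed genes reached 0.1 FPKM, with a median of -0.70 in log2 KO/WT, and 10 were over 1.5-fold lower and 1 was higher, beside 22.9% lower and 4.93% higher of all genes. Tinagl1 had 10.2 FPKM in WT and 5.83 FPKM in KO liver, and Lamc1, a laminin chain, had 5.91 and 3.34 FPKM. Nid2, nidogen, which links laminin to type IV collagen, had 2.49 and 1.05 FPKM, a WT/KO ratio of 2.38 (interval 2.07 to 2.74). Agrn, a heparan sulfate proteoglycan, had 5.21 FPKM in WT and 5.23 FPKM in KO liver. Lamb3, a laminin chain of epithelia, was the higher one, with 0.871 FPKM in WT and 1.79 FPKM in KO liver.

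**Figure D4:**
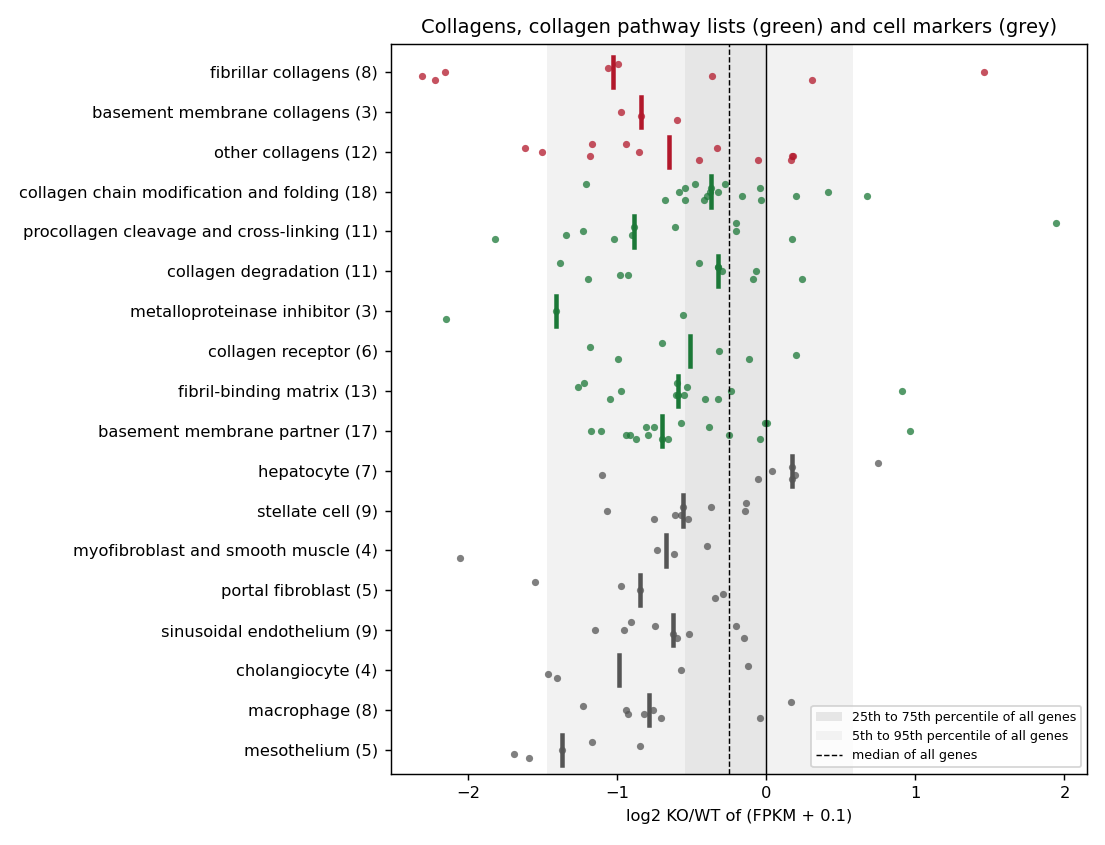
Log2 KO/WT of (FPKM + 0.1) for the genes of each class or list that reached a mean of 0.1 FPKM, with a point per gene, a bar at the median and the number of genes in brackets, over shaded percentile ranges of all genes. The medians of the fibrillar (-1.03) and basement membrane (-0.84) collagens lie left of the dashed median of all genes (-0.25), as do those of every pathway list and every non-hepatocyte marker list, while the hepatocyte median (0.17) lies right of it.

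As deposited, most markers of non-hepatocyte liver cells, like 74.8% of all genes and most collagens, were lower in KO liver, whereas 5 of 7 hepatocyte markers were higher. Hepatocyte markers gave the tissue its identity, with a summed 17312 FPKM in WT and 19395 FPKM in KO liver over 7 genes and a median log2 KO/WT of 0.17. Ahsg had 5309 and 5991 FPKM, Apoa1 3061 and 3503 FPKM, and Fgb 2698 and 4534 FPKM, whereas Cps1, a urea cycle enzyme of periportal hepatocytes, had 1597 FPKM in WT and 743 FPKM in KO liver. The 9 stellate cell markers summed to 89.9 FPKM in WT and 67.3 FPKM in KO liver, and all 9 were lower (7 with equal upper quartiles, without Colec11 and Des), 3 of them by over 1.5-fold, where 22.9% of all genes were, with a median of -0.56. Reln, a secreted glycoprotein of stellate cells, had 9.56 and 6.40 FPKM, Colec11 8.87 and 8.02 FPKM, and Ngfr, the low-affinity nerve growth factor receptor, 1.84 and 0.822 FPKM, while Ecm1 was listed at 51.9 and 40.1 FPKM on a row shared with Tars2. The 5 markers of myofibroblasts and smooth muscle summed to 16.5 and 8.25 FPKM. Acta2, smooth muscle actin and the usual marker of activated stellate cells, had 5.57 FPKM in WT and 1.26 FPKM in KO liver, a WT/KO ratio of 4.40 (interval 3.64 to 5.41), close to those of Col1a1 and Col3a1. Tagln had 10.1 and 6.54 FPKM and Myh11 0.460 and 0.236 FPKM, so the contractile genes were lower by unequal factors.

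The 5 portal fibroblast markers summed to 9.14 FPKM in WT and 5.65 FPKM in KO liver, with a median of -0.85 in log2 KO/WT. All 5 were lower, where 74.8% of all genes were, and 3 were over 1.5-fold lower, where 22.9% of all genes were. Eln, elastin, had 1.88 and 0.574 FPKM, Fbln2 1.97 and 1.05 FPKM, and Entpd2 was listed at 4.31 and 3.50 FPKM on a row shared with Npdc1. Of the 9 sinusoidal endothelial markers, 6 were over 1.5-fold lower, beside 22.9% of all genes. All 9 were lower (7 with equal upper quartiles, without Clec4g and Stab1), and the 9 summed to 84.6 and 60.5 FPKM, with a median of -0.63. Among them Clec4g, on a row shared with Gm9814, was listed at 21.8 and 18.9 FPKM, Fcgr2b had 12.2 and 8.47 FPKM, Stab1 11.7 and 10.5 FPKM, and Lyve1 2.72 and 1.17 FPKM. The 5 mesothelial markers, of the cells that cover the liver surface, had the lowest median of the marker lists, -1.37, and summed to 6.02 FPKM in WT and 1.95 FPKM in KO liver. Msln had 1.81 and 0.535 FPKM, Upk1b 1.22 and 0.310 FPKM and Upk3b 1.60 and 0.557 FPKM.

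Cholangiocyte markers summed to 5.36 and 3.06 FPKM over 5 genes, of which 4 reached 0.1 FPKM with a median of -0.99 in log2 KO/WT. Krt19 had 1.72 FPKM in WT and 0.559 FPKM in KO liver and Krt7 1.12 and 0.360 FPKM, while Sox9, higher in KO liver once the upper quartiles were equal, had 1.95 and 1.78 FPKM. The 8 macrophage markers summed to 60.8 and 38.5 FPKM with a median of -0.79, and 7 of them were lower (6 with equal upper quartiles, without Timd4). As deposited 74.8% of all genes were lower. Over 1.5-fold lower were 6 of the 8 markers, beside 22.9% of all genes. Cd5l had 18.4 and 10.8 FPKM, Clec4f 17.3 and 10.6 FPKM and Csf1r 3.98 and 1.64 FPKM, whereas Marco had 6.58 FPKM in WT and 7.37 FPKM in KO liver. No gene of these marker lists had a value of 0 in both libraries. Thus markers of 7 non-hepatocyte groups had medians below that of all genes. Their part in the lower collagen values was not tested.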

How the data were processed

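Hepatic RNA of WT and KO mice after PH was sequenced as 1 library per genotype. According to the study's methods, the authors aligned reads to NCBI37 (mm9) with TopHat (2.0.0) and assembled transcripts with Cufflinks (1.3.0). Per the labels the kit was the TruSeq RNA kit, and no strand setting is given in the sources used here. The FPKM values deposited by the authors come from Cuffdiff, with 1 value per locus and library. Cuffdiff's own fold changes, test statistics, p-values and q-values in that table were not used. The software here was pandas 2.3.3 and numpy 2.4.6 under Python 3.11.15, scipy 1.17.1 for intervals, and for plots matplotlib 3.10.9.

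Of 38016 loci, 850 named more than 1 symbol (the joint value went to each), and 21 marked HIDATA were left out. Rows of a symbol were summed. Log2 ratios used a pseudocount of 0.1 FPKM and genes averaging 0.1 FPKM or more. Estimated fragments are FPKM times the longest GENCODE vM1 transcript, over the value of 1 fragment. For depth, 2949 single-exon genes were searched for values between 0.01 and 0.03 FPKM times kb. The 104 (WT) and 108 (KO) genes in that window gave the peak taken as 1 fragment. Locus coordinates are on NCBIM37, counted from 1. The members and lists were chosen with earlier results of these data known. Every collagen past the filter was named, and of each other list the 3 genes with the highest mean FPKM and, in each direction, the gene of largest fold among those averaging 1 FPKM or more. A gene that this choice names is left out of the text. No test across samples was run. The steps were tested on simulated data with counting error alone. The simulation used the depth and transcript lengths taken here, so it could not test the depth estimate, the overlaps or differences between mice. Alternatives covered scaling, pseudocount, filter and the handling of rows.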

Additional observations from a re-analysis of the deposited data

How the results depend on the processing

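No sample could be left out, and no paired analysis was possible because each genotype has 1 library. Most values for the collagen classes (92 of 120 over the alternatives) stayed within their interval or within 1.5 times the count. For class medians that interval was a range of member genes, for fibrillar and basement membrane collagens from the lowest to the highest. A median inside it therefore says little. No value past 1.5-fold changed direction, but the scalings could not have reversed one, since the largest KO factor was 1.19. Nor can a pseudocount reverse a gene. The summed KO/WT ratios, whose counting intervals are narrow, moved with the scaling, and that of all collagens crossed 1. With equal upper quartiles they were 1.01 for all collagens, 0.493 for fibrillar, 0.722 for basement membrane and 1.19 for other types, and with KO centred on the median of expressed genes 1.001, 0.487, 0.713 and 1.18. With equal sums they were 0.870 for all and 1.02 for other types. Leaving out the most abundant member of each set gave 0.523, 0.522, 0.538 and 0.604. Leaving out joint loci gave 1.02 for other types, and rows marked OK alone gave 0.876 for all and 0.467 for fibrillar. Leaving out the 10 members with overlapping exons or joint rows, a choice made after seeing the data, gave 0.925 for all, 0.471 for fibrillar, 0.395 for basement membrane and 1.03 for other types, and left 9 collagens over 1.5-fold lower, since 7 of the 23 were not counted. Over 2-fold lower were 5 collagens with equal upper quartiles or the centring, beside 7.15% and 7.3% of all genes. With a pseudocount of 1 FPKM 4 were over 2-fold lower and 0 over 2-fold higher, and the share of all genes was not counted there. The basement membrane median was -0.59 with equal upper quartiles and -0.55 with a pseudocount of 1 FPKM. Over all settings the median of the collagens that passed the filter in use ran from -0.97 to -0.37, the KO/WT ratio of Col1a1 from 0.205 to 0.244 and that of Col27a1 from 2.95 to 3.52. Differences between mice cannot be judged from 1 library per genotype.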

Other observations

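Some of the 20 collagens under 0.1 FPKM had a counting interval of the KO/WT ratio that excluded 1, and they were singled out after their values were seen. Col24a1, a fibrillar collagen, had 0.108 FPKM in WT and 0.00837 FPKM in KO liver, or 40.9 and 3.44 estimated fragments, a KO/WT ratio of 0.0779 (interval 0.0134 to 0.213). Col25a1, a transmembrane collagen, had 0.108 and 0.00373 FPKM, or 38.6 and 1.44 fragments, a ratio of 0.0345 (0.000587 to 0.140). Col4a4, a type IV chain, had 0.0835 and 0.0132 FPKM, or 34.7 and 5.92 fragments, a ratio of 0.158 (0.0546 to 0.382), while Col4a3, its neighbour with 71 bases between them, had a ratio of 0.624 (0.353 to 1.13). Col22a1 had 14.5 and 0.852 fragments and Col4a6 13.3 and 1.75 fragments. Col9a3 was higher in KO liver, with 7.17 and 18.7 fragments, and its exons overlap those of Tcfl5 on the opposite strand. All of these lie under the filter used for the counts of collagens past a fold.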
